A study of Mus musculus with 24 samples.

Results

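Gene expression was compared between 4 mouse astrocyte lines that the study classed as highly tumorigenic and 4 that it classed as weakly tumorigenic, from how they grew when implanted under the skin of nude mice. The high class holds both p53 Y202C lines, p53 Y217C from males, and p53 R172H from females. Of these, female p53 Y202C formed tumors least often, and the paper did not name it among the lines whose tumors grew faster than p53 KO. The low class holds both p53 KO lines, p53 Y217C from females, and p53 R172H from males. Together they make up all 8 lines and all 24 RNA-seq libraries of the series, with 3 libraries per line, so 12 libraries stand in each class. The classes come from the tumor assay and not from expression, but the study also described the same grouping on the principal components of these libraries, so the separation itself is not a finding here.

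All lines began as cortical astrocytes of pups at postnatal day 1, with C57BL/6 as the labelled strain background, from a cross of B6.129S2-Trp53tm1Tyj/J and B6.129P2-Trp53tm1Brn/J mice. The pups carried a floxed and a deleted *Trp53* allele, and the cells of at least 3 pups were pooled per sex. The mutants were overexpressed from a retrovirus with an eGFP marker and sorted on eGFP, and every line, p53 KO included, then received Cre with a puromycin marker from a lentivirus to delete the floxed allele. The sample names carry the number 1 for each sex, and the labels give passages 10 to 15, and the study describes replicates of its in vitro work as independent thaws and platings. A line is therefore 1 transduced population, tests over libraries measure the spread within a line, and tests of the classes were made over 4 against 4 lines. Each class holds 2 male and 2 female lines, and both p53 KO lines are in the low class, so class and the presence of a mutant protein are partly tied. Library totals ranged from 52787288 to 136503809 counts. The astrocyte markers *Gfap* and *Aqp4* were near 0 in most lines. *Gfap* stood at 6.93 CPM (counts scaled to the library's effective total, the unit of all levels here) in male p53 Y217C and at or below 0.257 CPM in every other line. *Gja1*, a gap junction gene, lay between 81 and 221 CPM in the 8 lines. The 18 astrocyte genes tested summed to 705 to 1644 CPM in the high and 486 to 737 CPM in the low libraries. The 12 fibroblast and mural markers tested summed to 11690 to 53113 CPM in the high and 27482 to 39921 CPM in the low libraries. Of 12 microglia markers 2 were in the deposited table, and *Ptprc*, *Aif1*, and *Cx3cr1* were not among them.

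p53 is a transcription factor that halts the cell cycle or triggers cell death when DNA is damaged. Missense mutants of its DNA-binding domain lose much of this activity, accumulate in the cell, and can acquire other functions. Cells without working p53 commonly pass through G1 into DNA replication without its brake, and in glia they can form tumors once other changes follow.

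*Trp53* (ENSMUSG00000059552) served as a check of the labels. Its mean was 50.9 ± 2.75 CPM (SD, n = 3) in male p53 KO and 48.9 ± 2.72 in female p53 KO. The low mutant lines stood at 2287 ± 80.2 CPM in male p53 R172H and 3709 ± 162 in female p53 Y217C. In the high lines the level was 2324 ± 104 CPM in male p53 Y202C, 593 ± 18 in female p53 Y202C, 1215 ± 29.5 in male p53 Y217C, and 1956 ± 65.4 in female p53 R172H. The classes overlapped, and the lowest mutant level was in a high line and the highest in a low line. The class means differed by 1.82 on the log2 scale (exact two-sided permutation test over 8 lines, p = 0.4), and by -1.11 once both p53 KO lines were left out. With 4 against 4 lines this exact permutation test cannot go below p = 0.0286.

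The first question was which genes had the same direction in all 4 high lines. Of 14427 genes tested, 1770 (12.3%) had line means that did not overlap between the classes. In 840 genes (5.82%) the lowest high line lay above the highest low line, and in 930 (6.45%) the highest high line lay below the lowest low line. Most of these gaps were small. The gap exceeded 1 on the log2 scale for 58 genes (0.402%), 36 of them higher (0.25%) and 22 lower (0.152%), and it was under 0.1 for 340 higher and 405 lower genes. When each library had to lie on its own side, 261 higher (1.81%) and 289 lower genes (2%) remained. The median difference of class means over all genes was 0.01 on the log2 scale.

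The test over 8 lines, edgeR's quasi-likelihood test on counts summed per line, found 2 genes (0.0139%) at an adjusted p of 0.05 or less. *Six2* fell and *Setbp1* rose in the high class, each direction being 0.00693% of the genes. At an unadjusted p of 0.05 or less there were 1747 higher and 1096 lower genes, and at an adjusted p of 0.10 or less there were 61 and 55. The number called depended strongly on the tool. DESeq2 on the same line sums called 896 higher and 515 lower genes, and limma-trend on the line means called 9 and 4.

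*Six2* (ENSMUSG00000024134), a homeobox gene that keeps embryonic progenitor cells undifferentiated, lies on chromosome 17 of GRCm38 from 85684277 to 85688274. Its level was 61.6 ± 4.83 CPM in male p53 Y202C, 60.1 ± 2.55 in male p53 Y217C, 58.7 ± 2.78 in female p53 R172H, and 55.6 ± 2.29 in female p53 Y202C. In the low lines it was 185 ± 9.61 CPM in male p53 KO, 187 ± 8.27 in female p53 KO, 248 ± 8.15 in male p53 R172H, and 246 ± 6.86 in female p53 Y217C. The 4 high lines were nearly equal, and the low lines formed a p53 KO pair and a higher mutant pair. The log2 fold change was -1.87 (SE 0.13, adjusted p = 0.00728), and the adjusted p reached 0.0605 without male p53 Y217C. The neighboring noncoding gene *Gm29418*, on the same chromosome from 85796218 to 85824044, had line means from 0.146 to 0.718 CPM in the high class and from 2.16 to 3.56 CPM in the low class. The RefSeq promoter of *Six2* is shown because this gene had the smallest p over the lines. It is chr17:85688205-85688504 of GRCm38.p6, minus strand, from 250 bases before to 50 bases after the start. The capitals mark a CCAAT box, which was in 38.9% of such windows over all genes and in 43.1% of those of the lower genes without overlap.

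*Six2*: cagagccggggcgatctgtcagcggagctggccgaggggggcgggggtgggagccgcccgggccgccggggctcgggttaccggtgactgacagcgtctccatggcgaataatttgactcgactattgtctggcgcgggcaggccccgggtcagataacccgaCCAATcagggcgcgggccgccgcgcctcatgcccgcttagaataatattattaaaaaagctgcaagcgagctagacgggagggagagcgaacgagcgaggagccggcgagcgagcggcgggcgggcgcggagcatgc

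*Setbp1* (ENSMUSG00000024548), which encodes a partner of the SET oncoprotein, lies on chromosome 18 from 78750380 to 79109391. It had 101 ± 5.77 CPM in male p53 Y202C, 85.9 ± 4.29 in male p53 Y217C, 103 ± 2.52 in female p53 R172H, and 98.9 ± 13.4 in female p53 Y202C. The low lines had 46.2 ± 3.98 CPM in male p53 KO, 41.8 ± 0.614 in female p53 KO, 47.2 ± 2.85 in male p53 R172H, and 49.8 ± 0.397 in female p53 Y217C. Lines of a class were alike, and the log2 fold change was 1.07 (SE 0.11, adjusted p = 0.0487). This call was lost when any line other than female p53 Y202C was left out, with adjusted p up to 0.22, and with sex as a covariate (adjusted p = 0.0772). Without both p53 KO lines its adjusted p was 0.672.

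*Timp3* (ENSMUSG00000020044), a tissue inhibitor that blocks matrix metalloproteinases and stays bound to the matrix, was the most abundant of the genes with the widest gaps. Its level was 2164 ± 206 CPM in male p53 Y202C, 1082 ± 58.4 in male p53 Y217C, 1167 ± 123 in female p53 R172H, and 766 ± 55.9 in female p53 Y202C. The low lines lay between 160 ± 14 CPM in male p53 R172H and 197 ± 15.7 in male p53 KO. The 12 high libraries reached from 709 to 2328 CPM and the 12 low libraries from 145 to 213, so the libraries did not overlap. The log2 fold change was 2.86 (SE 0.31) and missed the threshold over the lines (adjusted p = 0.0572). *Timp3* lies inside *Syn3* on the opposite strand, and the sources used here do not give the strand of counting.

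The genes with the widest gaps are given for each direction by a fixed rule. These values are a description, since the genes were ranked by the same measure. Among the higher genes, *Ifi207*, *Ifi204*, *Ifi211*, and *Nlrp2* encode innate immune proteins, the *Ifi* genes being members of the HIN-200 family of DNA-binding, interferon-inducible proteins. *Ifi207* had high line means from 1.98 to 11 CPM and low line means from 0.0288 to 0.0493 CPM, with 11 counts at most in a low library. *Ifi204* had 17.9 ± 3.24 CPM in male and 15.4 ± 2.69 in female p53 Y202C, 41.3 ± 1.59 in male p53 Y217C, 38.3 ± 5.75 in female p53 R172H, and at most 1.34 ± 0.267 CPM in a low line. *Nlrp2* was far more uneven, from 0.388 CPM in female p53 Y202C to 39.8 CPM in male p53 Y202C, and no low library held more than 6 counts.

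*Mgst1*, *Sod3*, and *Aldh3a1* were also among the 12 higher genes. *Mgst1* (ENSMUSG00000008540), a membrane-bound glutathione transferase, had 18 ± 2.05 CPM in male p53 Y202C, 15.2 ± 1.71 in male p53 Y217C, 19.8 ± 1.1 in female p53 R172H, and 26.1 ± 4.43 in female p53 Y202C. The low lines had 0.913 ± 0.283 CPM in male p53 KO, 0.293 ± 0.0987 in male p53 R172H, 0.0732 ± 0.0562 in female p53 KO, and 0.075 ± 0.0553 in female p53 Y217C. The high lines were close to each other, while the low lines were spread over a wide range of very low values. *Sod3*, the extracellular superoxide dismutase, reached 19.8 to 422 CPM in the high lines and 0.536 to 4.55 CPM in the low lines. *Aldh3a1*, an aldehyde dehydrogenase, lay between 2 and 24.8 CPM against 0.142 and 0.308 CPM. After these values were seen, 23 tested genes commonly listed as targets of the aryl hydrocarbon receptor and of NRF2 were examined, with no test. Of these, 9 (39.1%, against 5.82% of all genes) were higher without overlap and 0 lower, but the 9 include *Mgst1* and *Aldh3a1*, which prompted the list. *Ahr*, the receptor itself, was another, with high lines from 60.9 to 132 CPM and low lines from 8.65 to 21.4 CPM. The 9 also include the glutathione transferases *Gstm1* and *Gstp1*. Other NRF2 targets overlapped between the classes. *Nqo1* lay between 4.88 and 21.5 CPM in the high lines and between 8.92 and 16.8 CPM in the low lines, and the difference of class means was -0.11 for *Gsr* and -0.09 for *Gclc* on the log2 scale.

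The remaining higher genes of this rule have varied roles. *Prelp*, a proteoglycan of the basement membrane, had line means from 53.6 to 535 CPM in the high class and from 6.71 to 15.9 CPM in the low class. *Cul9* (ENSMUSG00000040327) encodes a cytoplasmic ubiquitin ligase scaffold that binds p53, and it was even within the high class, from 17.6 ± 2.34 CPM in female p53 R172H to 24.3 ± 3.5 in male p53 Y202C. In the low class *Cul9* stayed between 2.35 and 5.76 CPM (adjusted p = 0.0611). *Irx3*, a homeobox gene of neural patterning, and *Aqp5*, a water channel, had gaps of 1.65 and 2.25 on the log2 scale. *Irx3* overlaps *Irx3os* on the opposite strand.

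**Figure D1:**
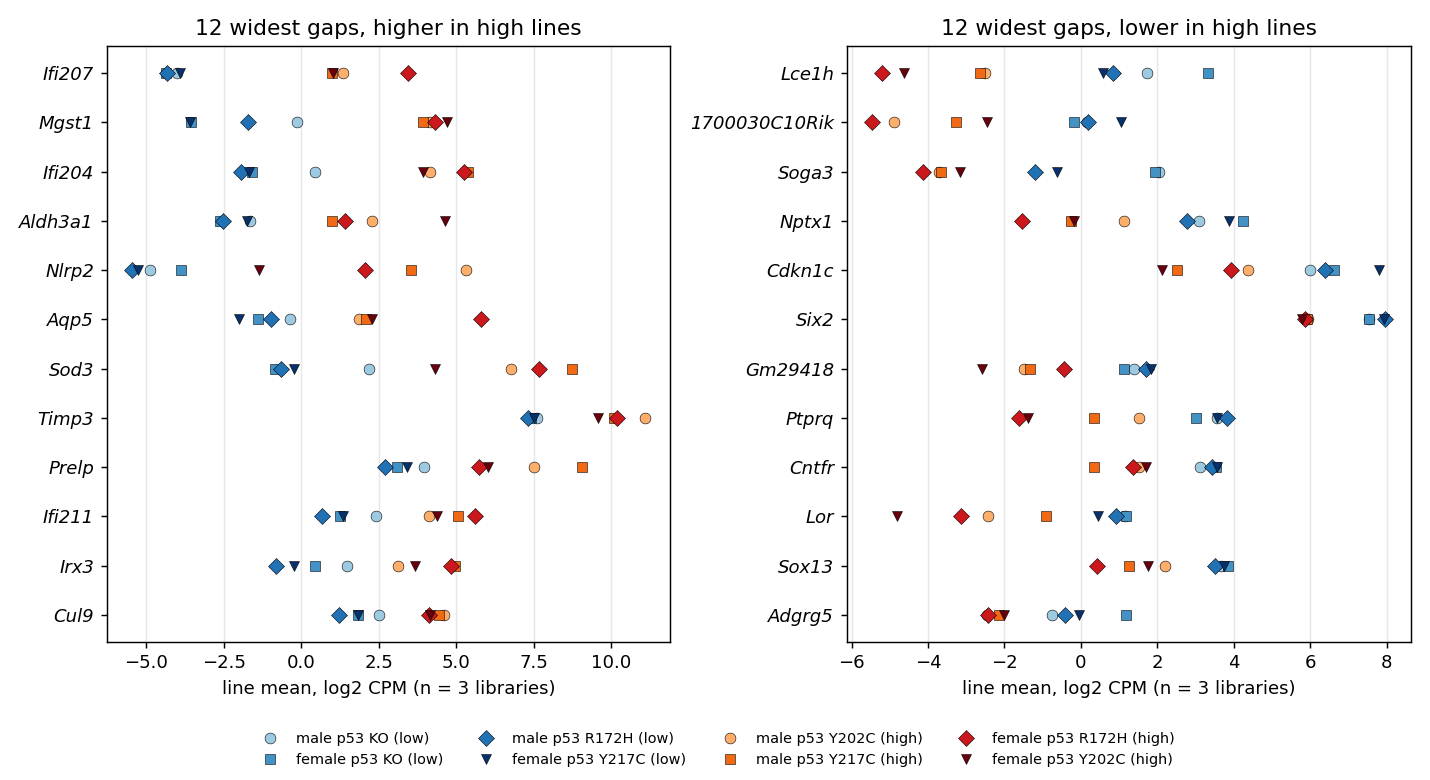
Line means on a log2 CPM axis (3 libraries per line) for the 12 genes with the widest gap in each direction, with low lines in blue and high lines in orange to red. Every gene has all blue points on one side of the others, *Six2* has the tightest high class, and *Nlrp2* and *Sod3* spread widely among the high lines.

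Among the lower genes, *Cdkn1c* (ENSMUSG00000037664) encodes p57, an imprinted inhibitor of cyclin-dependent kinases. It had 20.8 ± 1.62 CPM in male p53 Y202C, 5.83 ± 1.17 in male p53 Y217C, 15.2 ± 1.14 in female p53 R172H, and 4.37 ± 0.422 in female p53 Y202C. The low lines ran from 64.2 ± 8.62 CPM in male p53 KO to 225 ± 30.2 in female p53 Y217C, so each high line was below all of them (log2 fold change -3.35, SE 0.63, adjusted p = 0.0923). Genes of neurons and neural signaling were also in this group. *Nptx1*, a pentraxin found at synapses, lay between 0.331 and 2.19 CPM against 7.01 and 18.9 CPM, and *Cntfr*, the ciliary neurotrophic factor receptor, between 1.28 and 3.26 CPM against 8.69 and 11.8 CPM. *Sox13*, a transcription factor, lay between 1.33 and 4.65 CPM against 11.5 and 14.4 CPM, with little spread in the low class.

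*Lce1h* and *Lor*, which encode proteins of the cornified envelope of skin, were expressed at low levels in the low lines and lower still in the high lines. *Lce1h* ran from 0.00508 to 0.172 CPM in the high class and from 1.52 to 9.93 CPM in the low class. *Soga3* was split within the low class, with 4.11 CPM in male and 3.83 CPM in female p53 KO but 0.433 CPM in male p53 R172H and 0.625 CPM in female p53 Y217C, and at most 0.0899 CPM in a high line. *Ptprq*, a receptor phosphatase, *Adgrg5*, an adhesion receptor, and the noncoding gene *1700030C10Rik* complete the 12, with gap sizes of 1.48, 1.27, and 2.28 on the log2 scale. *Lce1h* belongs to a family of near-identical copies, and reads of such genes may be split between them.

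Some cell cycle genes were lower in all 4 high lines. Of 37 DNA replication genes, 12 were lower without overlap and 0 higher, or 32.4% against the 6.45% of all genes, and all 37 had a lower class mean in the high lines, with a median difference of -0.47 on the log2 scale. Of 24 mitosis genes, 13 (54.2%) were lower and 0 higher, with a median of -0.68. Of 27 genes of G1 control, 9 (33.3%) were lower and *Rb1*, the retinoblastoma gene, was higher, with a median of -0.31, and 7 had a higher class mean. The median over all genes was 0.01. None of these members passed the test over lines. In the paper's plate assay, both male high lines and female p53 R172H covered significantly more area than p53 KO. Female p53 Y202C did not, nor did male p53 R172H, and p53 Y217C cells from females grew more slowly than p53 KO. The relation of growth to these RNA levels was not tested.

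The cell cycle difference was uneven among the high lines. *Bub1*, a kinase of the spindle checkpoint, had 18.4 ± 1.99 CPM in male p53 Y202C, 37.2 ± 3.8 in male p53 Y217C, 32.7 ± 4.14 in female p53 R172H, and 36.6 ± 5.68 in female p53 Y202C, against 51 ± 5.46 to 69.7 ± 3.28 CPM in the low lines. *Cdc6*, a loading factor of the replication helicase, had 4.44 ± 0.258 CPM in male p53 Y202C and 12.3 to 15.9 CPM in the other high lines, against 17.5 to 24.2 CPM. As deviations from the mean of the 8 lines, the mitosis genes had a median of -0.95 in male and -0.25 in female p53 Y202C, -0.21 in female p53 R172H, and 0.09 in male p53 Y217C, and from 0.19 to 0.42 in the low lines. For DNA replication the median in male p53 Y217C was 0.11, also above the mean of the 8 lines. *Ccne1*, a cyclin that drives entry into replication, was lower in each high line at 10.6 to 19.6 CPM against 29.1 to 35 CPM. *E2f7*, a repressor of the E2F family, stood at 9.76 CPM in male p53 Y202C and 25.4 to 29.8 CPM in the other high lines, against 47 to 52.9 CPM.

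Promoters of these lists hold known cell cycle motifs. RefSeq promoter windows of 300 bases on GRCm38.p6 were matched by symbol for 10290 of the 14427 genes, the first window listed being taken for each, and motifs were searched on both strands. The E2F motif TTCCCGC was in 12 of 30 replication windows and in 0 of 20 mitosis windows, while the other E2F core TTGGCGC was in 9 and 3 of them and in 4.38% of all windows. The cell cycle homology region (CHR) motif TTTGAA was in 14 of 20 mitosis windows and in 4 of 30 replication windows. Among all windows TTCCCGC was in 8.52% and CHR in 11.7%. Among the genes lower without overlap these shares were 14.3% and 16.1%, and among the higher genes 6.52% and 10.4%. The window of *Bub1* held 0 CHR matches and that of *Orc1*, a replication gene, 0 matches to either E2F motif. Only these exact letters were searched, so a window without a match may still hold another form of the motif. That of *Bub1b*, a mitosis gene, held 1 CHR match and is not shown. Windows of some members that hold a match are shown to let the positions be compared. They are *Rrm1* at chr7:102441445-102441744, plus strand, *Cdc6* at chr11:98907901-98908200, plus strand, *Kif23* at chr9:61946750-61947049, minus strand, and *Ttk* at chr9:83834439-83834738, plus strand. Capitals mark the E2F motif in *Rrm1* and *Cdc6* and the CHR motif in *Kif23* and *Ttk*. A match is a description of letters and not evidence of binding.

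*Rrm1*: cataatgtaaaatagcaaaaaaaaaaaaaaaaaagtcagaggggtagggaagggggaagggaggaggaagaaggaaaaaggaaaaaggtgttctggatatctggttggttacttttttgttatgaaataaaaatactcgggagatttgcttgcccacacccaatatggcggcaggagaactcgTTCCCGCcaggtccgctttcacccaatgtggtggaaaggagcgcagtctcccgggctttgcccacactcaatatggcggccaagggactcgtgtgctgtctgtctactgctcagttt
*Cdc6*: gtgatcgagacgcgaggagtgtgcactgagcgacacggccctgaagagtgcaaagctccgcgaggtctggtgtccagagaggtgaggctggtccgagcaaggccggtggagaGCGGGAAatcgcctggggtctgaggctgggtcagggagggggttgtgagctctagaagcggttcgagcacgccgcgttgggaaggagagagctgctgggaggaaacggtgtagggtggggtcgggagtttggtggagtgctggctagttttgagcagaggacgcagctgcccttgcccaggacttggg
*Kif23*: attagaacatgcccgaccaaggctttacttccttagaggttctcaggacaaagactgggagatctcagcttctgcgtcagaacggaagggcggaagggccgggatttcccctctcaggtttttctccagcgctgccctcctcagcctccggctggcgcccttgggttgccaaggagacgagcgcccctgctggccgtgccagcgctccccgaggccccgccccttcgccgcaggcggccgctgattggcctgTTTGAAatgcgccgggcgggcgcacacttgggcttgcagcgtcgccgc
*Ttk*: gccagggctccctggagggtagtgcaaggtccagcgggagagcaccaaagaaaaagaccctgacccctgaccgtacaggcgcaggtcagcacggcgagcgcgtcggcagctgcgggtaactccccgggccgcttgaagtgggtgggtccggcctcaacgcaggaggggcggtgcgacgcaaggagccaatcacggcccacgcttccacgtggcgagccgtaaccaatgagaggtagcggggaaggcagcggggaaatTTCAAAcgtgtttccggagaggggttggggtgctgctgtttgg

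Some lysosomal genes were higher in all 4 high lines. Of 45 tested, 14 were higher without overlap and 0 lower, or 31.1% against 5.82% of all genes, the median difference was 0.55 on the log2 scale, and 0 passed the test over lines. *Lipa*, the acid lipase, had 107 ± 12.8 CPM in male p53 Y202C, 156 ± 12.7 in male p53 Y217C, 110 ± 9.46 in female p53 R172H, and 91.3 ± 6.22 in female p53 Y202C, against 48.3 to 68.7 CPM in the low lines. *Neu1*, a lysosomal sialidase, was 68.8 and 65.3 CPM in the male high lines but only 24.7 and 24 CPM in the female high lines, against 17.3 to 21 CPM. The median deviation of the list was 0.52 and 0.55 in the male high lines, 0.05 and -0.02 in the female high lines, and -0.43 to -0.13 in the low lines. *Ctso*, a cathepsin, had the reverse order, with 7.23 and 6.32 CPM in the male and 8.31 and 11.9 CPM in the female high lines, against 3.84 to 4.48 CPM.

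Interferon-stimulated genes stood apart in the female high lines. Of 35 tested, 6 were higher without overlap and 0 lower (17.1% against 5.82%), and the median difference of 1.77 on the log2 scale was carried by the female high lines. The list's median deviation was 3.94 in female p53 R172H and 1.46 in female p53 Y202C, but -0.95 in male p53 Y202C and -1.04 in male p53 Y217C, within the range of the low lines from -1.45 to -0.52. *Ifit3*, an antiviral RNA-binding protein, was higher in every high line, with 7.77 ± 0.885 CPM in male p53 Y202C, 21.6 ± 3.81 in male p53 Y217C, 253 ± 66.1 in female p53 R172H, and 26.7 ± 6.07 in female p53 Y202C against 1.98 to 3.7 CPM. *Usp18*, which removes the ubiquitin-like ISG15, reached 92.1 CPM in female p53 R172H and 0.938 CPM in male p53 Y217C, against 0.274 to 0.681 CPM. *Ifit3b* is a near copy of *Ifit3*, and reads may be split between them. Class I antigen presentation had 0 of 17 genes without overlap.

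The HIN-200 genes named above form a cluster on chromosome 1 from 173468485 to 174031810. After the values were seen, its 10 genes in the table were examined together, and 7 were higher without overlap, against 5.82% of all genes. The 7 include *Ifi207*, *Ifi204*, and *Ifi211*, which prompted this look. They also include *Ifi206*, which had 0 counts in the low libraries and 0.0133 and 0.00878 CPM in the male high lines, with 0 counts in at least 1 high library. The genes did not follow a common order among the lines. *Ifi204* and *Ifi205* were as high in male p53 Y217C, at 41.3 and 10.9 CPM, as in female p53 R172H, at 38.3 and 6.92 CPM. *Ifi203* was 51 CPM in female p53 R172H and 8.48 CPM in female p53 Y202C but 0.759 and 0.335 CPM in the male high lines, against 0.227 to 0.418 CPM in the low lines. *Ifi209* had the reverse order, with 1.29 and 2.21 CPM in male p53 Y202C and male p53 Y217C and 0.135 CPM in female p53 R172H but 0.0124 CPM in female p53 Y202C. These are paralogs that share sequence, and *Mndal* overlaps *Ifi211* on the same strand, so the split of reads among them is uncertain.

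**Figure D2:**
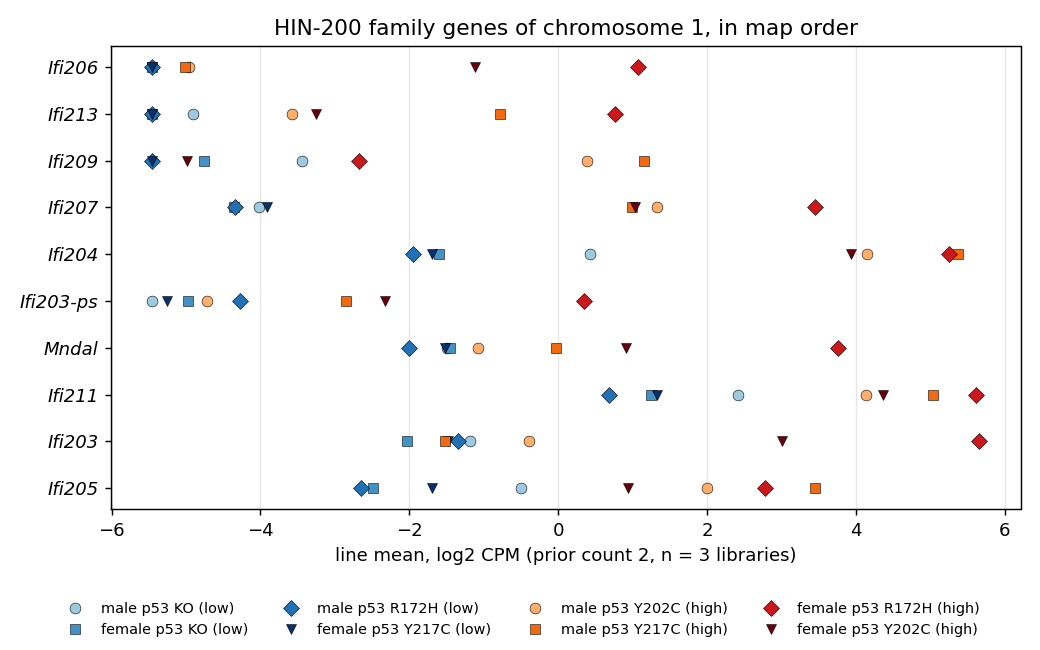
Line means of the 10 HIN-200 genes of chromosome 1 on a log2 CPM axis (prior count 2, 3 libraries per line), in map order from top to bottom. *Ifi207*, *Ifi204*, and *Ifi211* separate the high lines from the low lines, and *Ifi203* and *Ifi209* do not.

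The interferon-stimulated response element, which interferon-activated factors bind, was searched as GAAA, any 2 bases, and GAAA. It was in 16 of 25 windows of the interferon list (64%), in 3.05% of all windows, in 4.97% of the higher, and in 2.32% of the lower genes. It is shown in capitals for *Ifit3* at chr19:34583279-34583578, plus strand, and *Ifi207* at chr1:173741760-173742059, minus strand, which represent the list and the widest gap.

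*Ifit3*: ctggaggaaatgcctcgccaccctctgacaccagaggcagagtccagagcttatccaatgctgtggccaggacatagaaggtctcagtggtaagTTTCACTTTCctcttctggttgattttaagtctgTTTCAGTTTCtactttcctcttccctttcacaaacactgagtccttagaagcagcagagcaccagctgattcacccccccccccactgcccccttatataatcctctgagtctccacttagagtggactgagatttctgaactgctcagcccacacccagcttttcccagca
*Ifi207*: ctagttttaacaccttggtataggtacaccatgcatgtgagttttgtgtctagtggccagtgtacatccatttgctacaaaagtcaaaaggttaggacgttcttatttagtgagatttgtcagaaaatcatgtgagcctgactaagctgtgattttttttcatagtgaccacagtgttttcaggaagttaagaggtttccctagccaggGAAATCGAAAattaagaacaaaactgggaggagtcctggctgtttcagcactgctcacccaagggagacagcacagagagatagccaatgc

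**Figure D3:**
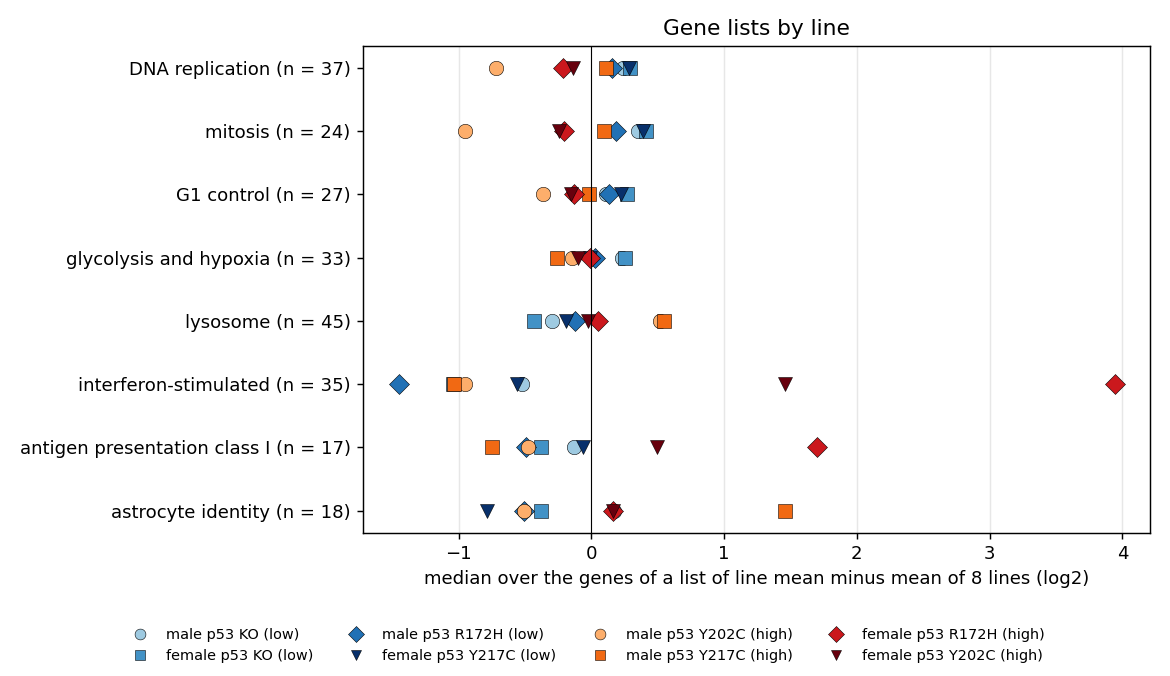
Median over the genes of a list of the line mean minus the mean of the 8 lines (log2), for 8 lists, with low lines in blue and high lines in orange to red. Male p53 Y202C is lowest for replication and mitosis, the male high lines are highest for the lysosome, and female p53 R172H and female p53 Y202C are highest for interferon-stimulated genes.

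Secreted signals and guidance molecules included both directions. *Fgf2* (ENSMUSG00000037225), a growth factor for astrocytes, was 3.76 ± 0.139 CPM in male p53 Y202C, 10.7 ± 0.255 in male p53 Y217C, 3.63 ± 0.307 in female p53 R172H, and 3.97 ± 0.221 in female p53 Y202C, against 0.972 ± 0.131 to 2.1 ± 0.217 CPM in the low lines. All 12 high libraries lay above the low libraries, with an adjusted p of 0.114 over the lines, and reads of the opposite-strand gene *Nudt6* cannot be told apart without strand. *Wnt5a*, a noncanonical Wnt ligand, overlapped between the classes, since male p53 Y202C had 27 ± 0.682 CPM and male p53 KO 34.7 ± 2.11. *Cxcl14*, a chemokine, lay between 19.1 and 226 CPM in the high lines and between 0.148 and 8.75 CPM in the low lines, and 4 of 22 chemokine and cytokine genes (18.2%, against 5.82% of all) were higher without overlap and 0 lower. Of the 4, *Tnfsf10* was at 0.0237 and 0.0209 CPM in the male high lines against 0.0173 CPM in male p53 KO, and it has high libraries with 0 counts.

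Of 51 axon guidance genes, 3 were higher (5.88%) and 2 lower (3.92%) without overlap, shares close to or under those of all genes, so the members are described singly. *Nrp2*, a semaphorin and VEGF coreceptor, had 194 ± 9.3 CPM in male and 101 ± 8.77 in female p53 Y202C, 312 ± 3.25 in male p53 Y217C, and 151 ± 3.69 in female p53 R172H, against 28.3 to 61.8 CPM. *Slit3*, a repulsive ligand, reached 57.8 to 567 CPM against 4.37 to 34.6 CPM. *Robo1*, a Slit receptor, had the opposite direction, at 15.4 to 45 CPM against 58.6 to 74.9 CPM, as had *Sema3d* at 11.4 to 23.4 CPM against 39.4 to 106 CPM. Of 42 Wnt pathway genes, 4 were higher (9.52%) and 1 lower (2.38%). *Wnt7a* is among the 4 only on mean log2 values, since its mean of 0.207 CPM in female p53 Y202C lay below 0.223 CPM in male p53 R172H. *Sfrp1*, a secreted Wnt antagonist, was at 71.3 to 387 CPM against 12.9 to 36.4 CPM. Of 35 TGF-beta and BMP genes, 3 were higher (8.57%) and 2 lower (5.71%), and *Inhba*, an activin subunit, was 57.3 to 153 CPM against 189 to 290 CPM. Of 38 receptor tyrosine kinase and ligand genes, 2 were higher (5.26%) and 1 lower (2.63%).

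Matrix genes are given beside the shares of all genes, 5.82% higher and 6.45% lower. Of 33 collagen genes, 1 was higher (3.03%) and 3 lower (9.09%), among them *Col7a1*, the anchoring fibril collagen, at 70.2 to 222 CPM in the high lines and 319 to 676 CPM in the low lines. Of 34 integrins and matrix ligands, 1 was higher (2.94%) and 4 lower (11.8%). *Thbs1*, an adhesive glycoprotein of the matrix, had 933 ± 112 CPM in male p53 Y202C, 3861 ± 296 in male p53 Y217C, 1933 ± 205 in female p53 R172H, and 2166 ± 102 in female p53 Y202C, against 6136 to 10224 CPM. Of 32 proteases and inhibitors, 2 were higher (6.25%) and 1 lower (3.125%). *Tead2*, a partner of YAP, was 95.1 to 118 CPM against 173 to 227 CPM, and *Yap1* was 122 to 154 CPM against 170 to 189 CPM, the 2 members of 25 mesenchymal regulators without overlap.

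Among 27 p53 targets 1 was higher and 1 lower (3.7% each), with a median difference of -0.03 on the log2 scale. Of 33 glycolysis and hypoxia genes 2 were higher (6.06%) and 5 lower (15.2%, against 6.45% of all genes), and 11 fell in all 4 high lines against p53 KO, where 8.12% of all genes did. The list's median log2 fold change against p53 KO of the same sex lay between -0.43 and -0.16 in the high lines. In the low mutant lines it was also negative, at -0.12 in male p53 R172H and -0.30 in female p53 Y217C. Of 27 cholesterol and fatty acid synthesis genes 3 (11.1%) were lower, among them *Fasn* and *Acaca*, enzymes of fatty acid synthesis. The Notch list had 0 of 18 genes without overlap and the neural progenitor list 1 of 20, *Vim*. The astrocyte list also had 0 of 18, but 14 of its class means were higher in the high lines, with a median difference of 0.80 on the log2 scale. Its genes summed to 705 to 1644 CPM (median 1294) in the high and 486 to 737 CPM (median 607) in the low libraries, and its median deviation was 1.46 in male p53 Y217C and -0.51 in male p53 Y202C. Of summed markers of other cell types, those of endothelial genes did not overlap between the classes. The 6 of 10 markers in the table summed to 40.6 to 131.5 CPM in the high and 163 to 267 CPM in the low libraries. *Pecam1*, *Cldn5*, and *Tie1* were not among them, and *Flt1* and *Esam* were the 2 without overlap. *Flt1* made up most of the sum, with a library median of 46.4 CPM in the high and 170 CPM in the low class, against 65.4 and 204 CPM for the sum. Of 12 neuron markers 5 were in the table, with *Tubb3* and *Nefm* lower, and their sum overlapped at 75 to 161 against 100 to 140 CPM. The 2 microglia markers in the table had 0 without overlap and summed to 16.7 to 114 against 43.1 to 102 CPM, and the 6 oligodendrocyte markers had 0 and summed to 92.5 to 466 against 235 to 478 CPM. *Mog*, *Mag*, and *Sox10* were not in the table. Among fibroblast and mural markers 1 of 12 was lower, *Tagln*, with sums of 11690 to 53113 CPM in the high and 27482 to 39921 CPM in the low libraries. The part of other cell types in the results was not tested, and in bulk libraries fewer cells of a type and less RNA per cell cannot be told apart.

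Each high line was next compared with p53 KO of its own sex by edgeR's quasi-likelihood test over libraries. All 4 high lines differed in the same direction for 2315 genes (16%), of which 1144 (7.93%) rose and 1171 (8.12%) fell. The 2 lines of a sex share their p53 KO libraries, so their differences from p53 KO are not independent. Whether the 16% exceeds the overlap of unrelated differences between lines was not tested. Of the lysosomal genes 22 of 45 rose in all 4 lines and 0 fell, and 11 of 37 replication and 11 of 24 mitosis genes fell and 0 rose. The lysosomal median log2 fold change against p53 KO was 0.45 to 0.89 in the high lines. In the low mutant lines it was 0.17 in male p53 R172H and 0.18 in female p53 Y217C. The replication median was -0.97 to -0.04 in the high lines and -0.07 and -0.11 in these low lines. For mitosis it was -1.28 to -0.16 in the high lines and -0.16 and 0.06 in these low lines.

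The same mutation gave a high line in one sex and a low line in the other for p53 R172H and p53 Y217C, so those pairs hold the mutation fixed and reverse the sex. Female against male p53 R172H and male against female p53 Y217C differed in the same direction for 4323 genes (30%). Of these, 2041 (14.1%) rose and 2282 (15.8%) fell in the high line. How many genes differed within each pair, or in opposite directions, is not given here. Whether the 30% exceeds the overlap of unrelated differences between lines was not tested. *Six2* fell by 2.08 on the log2 scale in the p53 R172H pair and by 2.03 in the p53 Y217C pair. *Timp3* rose by 2.86 and 2.58, *Mgst1* by 6.03 and 7.66, and *Fgf2* by 1.57 and 3.46. *Trp53* itself fell by 0.23 and 1.61 in these pairs.

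Whether the class difference was alike in male and female lines was tested as an interaction over the 8 line sums. It passed for 11 genes (0.0762%), and at an unadjusted p of 0.05 or less for 1844. The count was 1 when replicate 2 of every line was left out and 16 without replicate 1. All 11 had opposite directions in the sexes. In 10 (0.0693%) the high lines were above the low lines in females and below them in males, and in 1 (0.00693%) the reverse held. *Il1r1*, the receptor of interleukin-1, was 66.5 ± 5.35 CPM in female p53 R172H and 89.3 ± 8.82 in female p53 Y202C, but 3.82 ± 0.551 in male p53 Y202C and 4.01 ± 0.34 in male p53 Y217C, with low lines between 7.88 and 14.9 CPM. The difference of the class effects, male minus female, was -5.13 on the log2 scale (SE 0.30, adjusted p = 0.0148). *Dapk1*, a death-associated kinase, was 0.21 and 0.211 CPM in the male high lines, 20.2 and 37.2 CPM in the female high lines, and 1.78 to 6.24 CPM in the low lines. *Lifr*, the receptor of leukemia inhibitory factor, and *Vegfd*, a growth factor for lymphatic vessels, had the same order, and *Dtna*, a dystrobrevin, the reverse, with 109 and 147 CPM in the male and 17.3 and 16.9 CPM in the female high lines. p53 Y202C is a high line in both sexes, and the other high line is p53 Y217C in males and p53 R172H in females. Each sex is 1 pooled culture, so sex and culture cannot be told apart in this test. The part of the mutation was not tested.

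**Figure D4:**
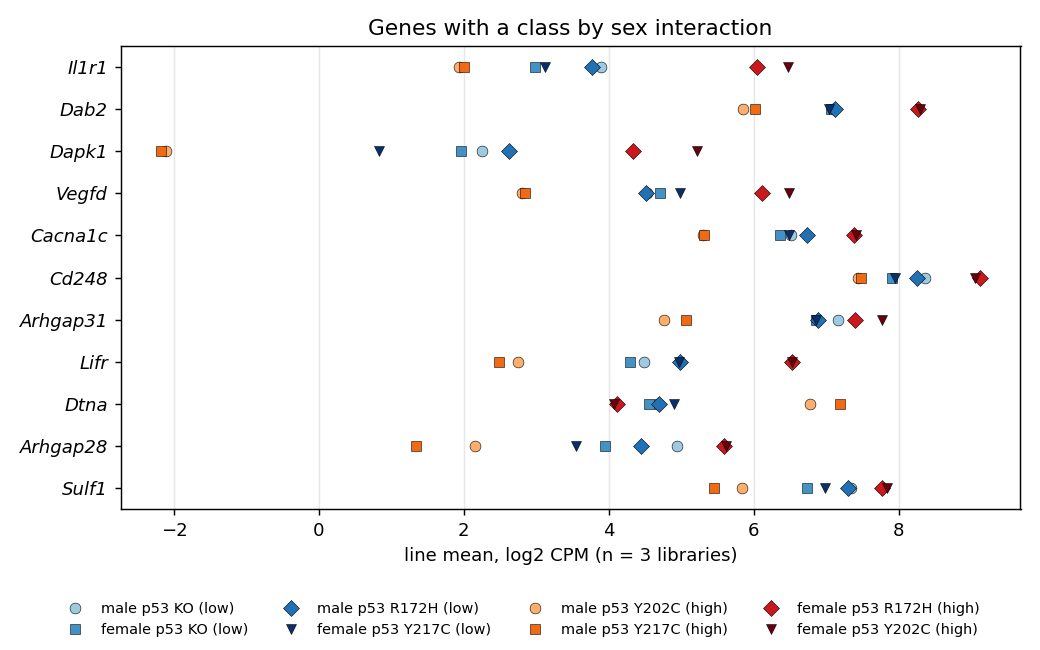
Line means on a log2 CPM axis (3 libraries per line) of the 11 genes with a class by sex interaction, a count that was 1 without replicate 2. The male high lines (light orange circles and orange squares) and the female high lines (red diamonds and dark red triangles) lie on opposite sides of the low lines in blue.

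The high lines were also less alike than the low lines. The SD among the 4 line means had a median of 0.37 on the log2 scale in the high and 0.20 in the low class, and it was wider in the high class for 82.2% of the genes. Among genes higher without overlap it was 0.28 against 0.18, and among lower genes 0.26 against 0.13. This unequal spread stands behind every test over the lines and was not modeled by class.

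The share of genes without overlap is given by chromosome as a description, with no test, beside 6.45% lower and 5.82% higher over all genes. On chromosome 9, 120 of 809 genes (14.8%) were lower and 17 (2.1%) higher in the high lines. On chromosome 14, 43 of 496 were higher and 8 lower, on chromosome 19, 51 of 489 were higher and 13 lower, and on chromosome 1, 65 of 849 were higher and 27 lower. The median deviation of all tested chromosome 9 genes from the mean of the 8 lines was -0.28 in female and 0.05 in male p53 Y202C, -0.18 in female p53 R172H, and 0.08 in male p53 Y217C. In the low lines it was 0.04 in male p53 KO, -0.04 in female p53 KO, 0.15 in male p53 R172H, and 0.16 in female p53 Y217C. Chromosome 9 as a whole therefore did not separate the classes, since the male high lines lay among the low lines. On chromosome 14 the median deviation ran from -0.21 to 0.34 in the high and from -0.35 to 0.12 in the low lines. On chromosome 19 it ran from -0.09 to 0.23 in the high and from -0.19 to 0.08 in the low lines. On chromosome 1 it ran from -0.12 to 0.06 in the high and from -0.38 to 0.17 in the low lines. The classes overlapped on each.

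**Figure D5:**
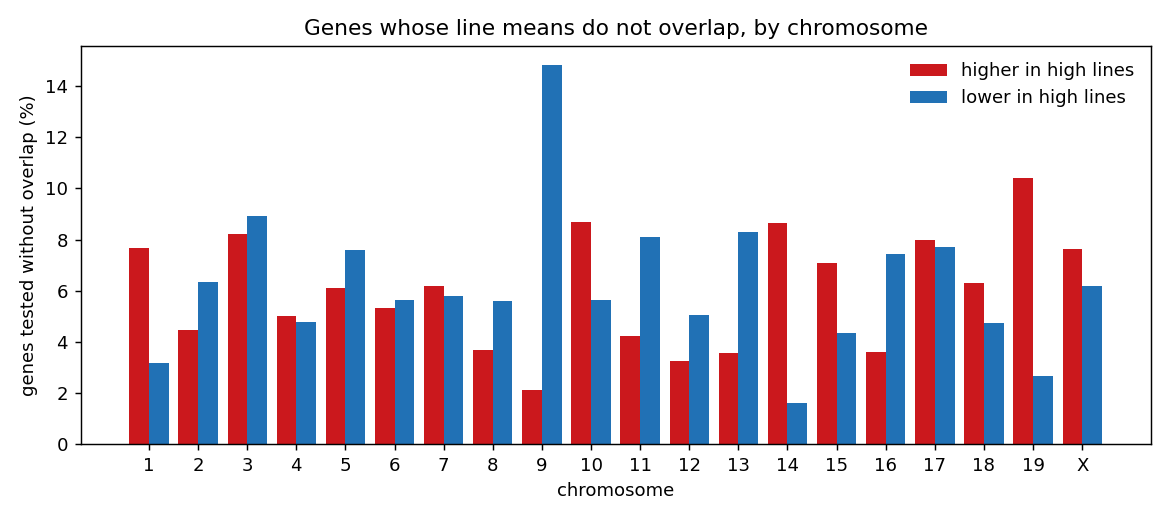
Percentage of the tested genes of each chromosome whose line means do not overlap between the classes, higher (red) and lower (blue) in the high lines. Chromosome 9 has the highest share of lower genes, 14.8%, and chromosome 19 the highest share of higher genes, 10.4%.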

How the data were processed

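RNA-seq libraries from 8 astrocyte lines, 3 per line, were grouped by line from the sample titles and by class from the study's tumor assay. The authors aligned reads with STAR 2.5.1a to the Ensembl release of GRCm38, assigned reads that aligned once and to a single gene with Subread featureCounts, and deposited the raw counts of 14427 genes. The strand of counting is not given in the sources used here. The members, gene lists, and rules were chosen with earlier results of these data known, and lists marked as such after the values were seen.

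TMM factors over all libraries gave CPM and log2 CPM with a prior count of 2, averaged per line. A filter of more than 1 CPM in 2 libraries removed no gene. Counts summed per line were tested by edgeR 4.0.16 in R 4.3.3 with Benjamini-Hochberg adjustment and a threshold of 0.05, and contrasts between lines used 1 fit of 24 libraries. Genes do not overlap when the 4 high line means lie on one side of the 4 low line means, and the gap is the distance between the nearest lines. Named genes were *Trp53*, *Wnt5a*, *Fgf2*, those passing the test over lines, the 12 widest gaps per direction among genes whose higher class has no library under 10 counts, and up to 4 members per list among those passing or not overlapping. HIN-200 genes, other list members, and the interaction genes were named after their values were seen. Symbols and positions came from GENCODE M21, which named 14350 genes. On simulated data, 71 of 100 genes changed at fold 4 and 87 of 100 at fold 16 were recovered over the lines, with 1 false call in that run. At fold 2, 61 of 200 changed genes of low spread were recovered, with 2 false calls. The simulation gave both classes the same spread, unlike the data, so recovery in the data can be lower. Alternatives used DESeq2 1.42.0 and limma 3.58.1, other normalization, filters, and lines left out. Some genes that met the naming rule are not reported here.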

Additional observations from a re-analysis of the deposited data

Results flagged for a closer look

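In 11 of 184 groups of 4 line means, a line lay far from the nearest of the others, as chance does in about 1 of 20 groups. Values are log2 CPM. Among the high lines, *Ccl20* was 2.20 in female p53 Y202C, *Ifi207* 3.45 and *Aqp5* 5.78 in female p53 R172H, *Fgf2* 3.42 and *Tagln* 10.1 in male p53 Y217C, and *Wnt7a* 1.53, *E2f7* 3.29, and *Fasn* 8.28 in male p53 Y202C. Among the low lines, *Ifi204* was 0.43 in male p53 KO, *Plaur* 6.35 in female p53 KO, and *Fasn* 9.42 in male p53 R172H.

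The class effect differed between male and female lines for 11 genes, as male minus female differences on the log2 scale, by edgeR's quasi-likelihood test of the interaction. The count fell to 1 without replicate 2. They were *Il1r1* at -5.13, *Dab2* at -2.41, *Dapk1* at -8.06, *Vegfd* at -3.18, *Cacna1c* at -2.30, *Cd248* at -2.02, *Arhgap31* at -2.86, *Lifr* at -4.03, *Dtna* at 2.95, *Arhgap28* at -4.75, and *Sulf1* at -2.62. The adjusted p was 0.0148 for *Il1r1* and 0.0441 for the others.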

How the results depend on the processing

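Of the genes called over the lines (2), DESeq2 on line sums gave 1411, limma-trend 13, voomWithQualityWeights with line as a random block 1897, libraries as the unit 10987, a filter of more than 1 CPM in 4 line sums 4, sex as a covariate 1, and leaving out both p53 KO lines 1. Leaving out a line gave 0 (without male p53 Y217C) to 102 (without female p53 Y202C), and leaving out a replicate 1 to 4. The genes without overlap of line means (1770) were 189 with a gap above 0.5, 58 above 1, and 2781 without p53 KO lines, and 1937 to 3022 without a line, the most without male p53 Y202C, and 1617 to 1743 without a replicate. Fewer lines make overlap less likely by construction. For libraries without overlap (550) the values were 1000 without p53 KO lines, 611 to 1189 without a line, and 722 to 850 without a replicate. With an absolute log2 fold change above 0.5, all 4 high lines differed from p53 KO at 782 genes and both mutation-matched pairs at 1687. Without a replicate these were 1784 to 1895 and 3476 to 3708. The interaction gave 1 to 16 genes, with 1 without replicate 2. The class difference of *Trp53* reversed to -1.11 without p53 KO lines (0.83 to 2.91 without a line), and its fitted log2 fold change over lines, 0.00, was -0.97 without p53 KO lines and -0.40 to 0.94 without a line. Libraries that share a replicate number deviated from their line means with a mean correlation of -0.0116, and 4 of 24 correlated best with their own number, so the numbers do not pair them. With the replicate block 2272 genes differed in all 4 lines and 4235 in both pairs. DESeq2 size factors and a prior count of 0.5 changed no count by more than 1.5 times. The cause of these changes was not tested.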

Other observations

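Imprinted genes were listed after the values were seen. Of 21 tested, 2 (9.52%, against 6.45% of all genes) were lower without overlap, *Ndn* and *Cdkn1c*, which prompted the list, and 0 were higher. The median difference was -0.83 on the log2 scale, against 0.01 over all genes. It was carried by the male high lines, where the list's median deviation was -0.76 in p53 Y202C and -1.08 in p53 Y217C. In female p53 R172H and female p53 Y202C the deviation was 0.03 and -0.02, within the low lines' range of -0.03 to 0.69. *Ndn*, a growth suppressor expressed in neurons, was 0.399 CPM in male p53 Y202C, 0.972 in male p53 Y217C, 1.91 in female p53 R172H, and 0.564 in female p53 Y202C, against 3.37 to 27.4 CPM in the low lines. *Peg3*, a zinc finger gene, overlapped, with 6.68 and 12.5 CPM in the male and 588 and 123 CPM in the female high lines against 55 to 263 CPM.

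Runs of 3 or more neighboring tested genes without overlap in the same direction included *Fbxo7*, *Syn3*, *Timp3*, and *1810014B01Rik* on chromosome 10, which were higher, and the tubulin genes *Tuba1b*, *Tuba1a*, and *Tuba1c* with *Troap* on chromosome 15, which were lower. *Syn3* and *Timp3* overlap on opposite strands, and the tubulin genes are near copies of each other.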
